A study of Mus musculus with 5 samples.

Results

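The genes described here encode the enzymes that write, copy and remove cytosine methylation in DNA: Dnmt1, Dnmt3a, Dnmt3b, Uhrf1, Tet1, Tet2, Tet3 and Tdg. They were chosen by symbol, and all 8 were found among the 19726 gene symbols listed for each library. RNA came from samples labelled as CD4+ T cells from 7-week-old C57/Bl6j mice, which were wild-type. Spleen gave 3 libraries (replicates 1, 2 and 3). MC38 tumors, formed by a transplantable mouse colon carcinoma line, gave 2 libraries (replicates 2 and 3). No agent or second genotype is named in the labels, and neither the way the cells were isolated nor any pooling of mice is given in the sources used here. The study asked how the tumor environment changes gene expression and splicing in these cells. Values are TPM, a share of all transcripts in a library, corrected for transcript length.

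DNA methylation in mammals sits mainly on cytosines followed by guanine (CpG). Dnmt3a and Dnmt3b encode the de novo methyltransferases that set new marks, while Dnmt1 encodes the maintenance enzyme that copies marks after replication and Uhrf1 the protein that brings DNMT1 to newly copied, hemimethylated DNA. Tet1, Tet2 and Tet3 encode dioxygenases that oxidise 5-methylcytosine with 2-oxoglutarate as co-substrate, and Tdg encodes the glycosylase that cuts out the further oxidised bases so that repair can restore cytosine. In T cells these enzymes are known for their part in lineage commitment, in the stability of Foxp3 expression and in restraint of effector genes, and loss of DNMT3A or TET2 function is a known event in blood malignancies.

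Promoter sequence is shown for 4 of the genes: Dnmt3a and Dnmt3b as the de novo pair whose deposited TPM moved in opposite directions, Uhrf1 as the recruiter of DNMT1, and Tet2 as the most abundant gene and the one with the most CpG. Each run is the 250 bases before a RefSeq transcript start on GRCm38.p6, 5′ to 3′ on the gene's strand, and none of these 4 windows holds an annotated exon. The windows are chr12:3806730-3806979 (+) for Dnmt3a, chr2:153649199-153649448 (+) for Dnmt3b, chr17:56304063-56304312 (+) for Uhrf1 and chr3:133544391-133544640 (-) for Tet2. Capitals mark matches, on either strand, to a GC box, a CCAAT box or an E2F word. The GC box was searched as GGGCGG. The CCAAT box was searched by the letters of its name. E2F words were TTTCCCGC, TTTCGCGC, TTTGCCGC and TTTGGCGC, and no searched word contains another.
Dnmt3a: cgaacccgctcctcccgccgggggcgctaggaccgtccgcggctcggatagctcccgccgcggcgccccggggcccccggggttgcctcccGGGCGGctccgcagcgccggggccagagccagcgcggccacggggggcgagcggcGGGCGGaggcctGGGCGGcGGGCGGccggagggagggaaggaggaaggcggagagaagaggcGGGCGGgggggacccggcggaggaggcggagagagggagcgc
Dnmt3b: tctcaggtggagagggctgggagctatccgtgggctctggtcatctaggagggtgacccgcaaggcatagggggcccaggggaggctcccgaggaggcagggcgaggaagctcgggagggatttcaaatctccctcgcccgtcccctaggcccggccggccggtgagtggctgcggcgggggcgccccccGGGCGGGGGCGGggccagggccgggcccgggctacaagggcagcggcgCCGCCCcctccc
Uhrf1: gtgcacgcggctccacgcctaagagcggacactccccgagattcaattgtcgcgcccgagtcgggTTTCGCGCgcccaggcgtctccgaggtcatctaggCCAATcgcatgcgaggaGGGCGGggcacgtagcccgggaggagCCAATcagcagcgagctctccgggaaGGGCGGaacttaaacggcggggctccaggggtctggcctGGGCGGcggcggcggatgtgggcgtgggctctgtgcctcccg
Tet2: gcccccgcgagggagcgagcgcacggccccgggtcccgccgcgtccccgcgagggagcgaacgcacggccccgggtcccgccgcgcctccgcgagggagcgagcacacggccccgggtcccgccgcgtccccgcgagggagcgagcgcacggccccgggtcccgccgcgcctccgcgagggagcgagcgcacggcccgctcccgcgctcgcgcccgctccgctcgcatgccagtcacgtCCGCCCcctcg

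The windows hold 38 CpG in Dnmt3a, 21 in Dnmt3b, 30 in Uhrf1 and 51 in Tet2, against a median of 6 over 32851 RefSeq windows of the same length. Other windows of Dnmt3a, not shown, held 40 and 15 CpG, and the one with 40 overlaps the window shown. The other Uhrf1 window held 10 CpG and no E2F word. These other windows hold exon sequence of their own gene. The 8 genes had 13 such windows in all, and 12 of them held more CpG than that median, while the most upstream Dnmt1 window held 2. An E2F word, the letters bound by the factors that drive S phase genes, was found in 2 of the 13 windows, one of Uhrf1 and one of Dnmt1, and in 1.86% of all windows. GC boxes were in 10 of the 13 (32.7% of all windows), CCAAT boxes in 6 (33.8%) and the NRF1 motif, searched by its consensus, in none (3.74%). The matches are letters in sequence, and binding or methylation was not measured.

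The libraries differed in what else they held. Summed TPM of 11 T cell markers was 918 to 1202 in spleen and 237 to 299.6 in tumor, with Cd3g, which encodes a CD3 chain, the highest. All 11 were called lower in tumor, 10 of the 11 still lay above background there on average, and none was at 0. Summed TPM of 16 macrophage and monocyte markers was 24.0 to 26.1 in spleen and 6658 to 7329 in tumor, 281-fold higher, led by Fcer1g, and all 16 were called higher. Dendritic cell markers (7, led by Itgax; 2 called higher, 1 lower) summed to 47.1 to 57.3 and 115 to 163 TPM, neutrophil markers (6, led by Csf3r, likewise 2 and 1) to 16.0 to 21.4 and 67.0 to 72.5 TPM, and erythroid markers (6, led by Hbb-bs, 4 and 1) to 5.47 to 11.9 and 14.8 to 20.01 TPM. CD8 T and NK cell (6, led by Klre1), B cell (6, led by Cd79b) and epithelial (7, led by Epcam) markers summed to at most 21.9, 8.23 and 3.05 TPM in any library, with 3 called lower in the first list, 1 higher and 1 lower in the second and 0 called in the third. Fibroblast and endothelial markers (6, led by Pecam1) summed to 64.3 to 77.7 TPM over all libraries, with 1 called higher, and only Pecam1 lay above background on average. Of the dendritic cell markers only Itgax (means of 2.10 TPM in spleen and 112 TPM in tumor) and Ccr7 (41.2 and 15.2 TPM) had tumor means above background. Of the neutrophil markers only Csf3r (0.88 and 55.5 TPM) and Cxcr2 (15.5 and 9.19 TPM) did. The sums of those lists mostly reflect these genes. No marker of any list was at 0 in all 5 libraries. Listed TPM made up 26.9% to 36.0% of the TPM scale in spleen and 56.9% to 59.6% in tumor, so directions of the 8 genes and counts of the related lists were recomputed under 4 other scalings: median ratios, upper quartile, equal listed totals, and the T cell markers held equal. Changes of some single genes of the related lists are given for the deposited TPM only. Lars2 alone made up 17.4% to 25.2% of listed TPM in spleen and 19.5% and 9.81% in tumor replicates 2 and 3, and it enters the equal totals. In a bulk sample fewer cells of a type and less RNA per cell cannot be told apart, and the part of other cell types in the values of the 8 genes was not tested.

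Tet2 was the most abundant of the 8 genes and Dnmt1 the next in every library. A background level was set by 1134 olfactory receptor genes, which T cells are not known to use: the 95th percentile of these ran from 10.6 to 16.2 TPM over spleen libraries and from 7.59 to 10.7 TPM over tumor libraries. Only Tet2 and Dnmt1 exceeded it in all 5 libraries. Dnmt3a, Tet3 and Tdg exceeded it in 3 libraries each, spleen replicate 2 and both tumor replicates. Dnmt3b, Uhrf1 and Tet1 exceeded it in none, so the levels of these 3 genes lie in the range of genes not known to be active. The 95th percentile is the upper end of that range. All 3 genes lay above the olfactory median of each library, which was 0.47 to 0.74 TPM in spleen and 0.32 and 0.44 TPM in tumor. In spleen the ranges of Dnmt3a, Tdg and Tet3 overlapped, as did those of Dnmt3b and Uhrf1, and Tet1 lay between these groups. In tumor Dnmt1 overlapped with Dnmt3a and Tdg with Tet3, and the order below them was Uhrf1, Tet1 and Dnmt3b without overlap.

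**Figure D1:**
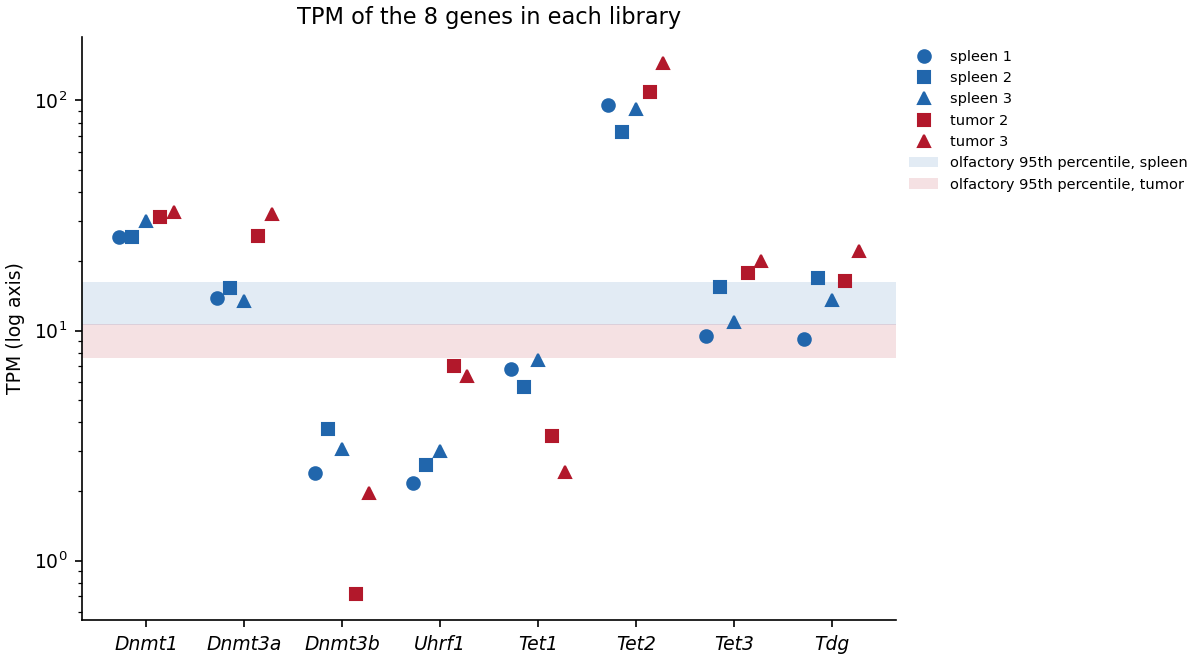
TPM of each gene (log axis) in spleen replicates 1 to 3 (blue) and tumor replicates 2 and 3 (red); shaded bands span the 95th percentile of olfactory receptor genes over the libraries of each tissue. Tet2 lies at 73.0 to 145 TPM, far above the bands, while Dnmt3b, Uhrf1 and Tet1 lie below the band of their tissue in each library.

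In the deposited TPM, 5 of the 8 genes were called higher in tumor (Dnmt3a, Uhrf1, Tet2, Tet3 and Tdg), 2 lower (Dnmt3b and Tet1), and Dnmt1 was not called. A call is an adjusted p below 0.05 in limma fitted across the 12979 genes whose mean reached 1 TPM, a filter that all 8 genes passed. Of those genes 59.0% were called, 40.9% higher and 18.1% lower, so 7 calls among 8 genes stand against a large background and are not particular to this group. Among all genes the rises made up 69.3% of calls, which moved to 63.8% by median ratios, 38.5% on the upper quartile, 28.4% for equal totals and 98.9% with T cell markers held equal. For the 8 genes the calls were then 3 higher and 2 lower, 2 and 3, 0 and 3, and 7 and 0. Over all tested genes they were, in the same order, 4838 higher and 2742 lower of 12977, and 3478 and 5545 of 13096. For the last 2 scalings they were 2697 and 6789 of 13197, and 12712 and 135 of 13495. The libraries of the tissues did not overlap for 7 of the 8 genes, 5 higher and 2 lower in tumor, against 70.4% of all tested genes, 46.6% higher and 23.8% lower. The median log2 change of the 8 was 0.53 and that of all tested genes 0.23. That last median moved to 0.16 by median ratios, -0.33 on the upper quartile, -0.56 for equal totals and 1.92 with T cell markers held equal. Relative to it, Dnmt3a, Uhrf1, Tet2, Tet3 and Tdg lay above and Dnmt3b and Tet1 below under each of the 5 scalings, while Dnmt1 changed side. A scaling divides each library by 1 factor and so shifts all genes nearly alike. Positions relative to the median, here and below, are therefore nearly fixed in advance across the 5 scalings and are not separate checks.

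Dnmt3a and Dnmt3b, the de novo methyltransferase genes, moved in opposite directions in the deposited TPM; the signs stayed opposite under the other scalings but that on T cell markers, and with equal totals Dnmt3a was not called. Dnmt3a (chromosome 12, 3806007 to 3914443) was at 13.8, 15.2 and 13.4 TPM in spleen replicates 1, 2 and 3 and at 25.9 and 32.2 TPM in tumor replicates 2 and 3. Both tumor libraries were above every spleen library. The means were 14.1 ± 0.98 (SD, n = 3) and 29.0 ± 4.47 TPM (SD, n = 2), or 0.98 ± 0.21 (SE) as a log2 change, with a limma adjusted p of 6.7e-05. The rise was called in each fit that left out 1 library, and it was not called with equal totals (log2 change 0.091, limma adjusted p = 0.611). Relative to the median of all tested genes it was 0.65 to 0.99 higher on the log2 scale over the 5 scalings. An antisense gene overlaps Dnmt3a exons, and the sources used here do not say whether strand was used in the quantification.

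Dnmt3b (chromosome 2, 153649450 to 153687730) was at 2.41, 3.72 and 3.06 TPM in spleen and at 0.72 and 1.96 TPM in tumor. All of these values lie below the olfactory background, and the tissues did not overlap. The log2 change was -0.84 ± 0.23 (SE; limma adjusted p = 0.00166), and it rested on tumor replicate 2: without that library it was -0.44 and not called (limma adjusted p = 0.202). With T cell markers held equal it was 0.51 and not called (limma adjusted p = 0.119). Dnmt3c, the neighbouring rodent copy of Dnmt3b, was listed at 0.036 to 0.41 TPM, and reads shared by the copies could be split between them.

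Maintenance of methylation gave a different picture for its enzyme and for the factor that recruits it. Dnmt1 (chromosome 9, 20907209 to 20959888) was at 25.5, 25.5 and 30.0 TPM in spleen and at 31.3 and 32.8 TPM in tumor. The tumor values were above the spleen values by little, with a log2 change of 0.24 (95% confidence interval -0.17 to 0.66; limma adjusted p = 0.31). Its sign followed the scaling: -0.38 on the upper quartile (limma adjusted p = 0.0456), -0.66 with equal totals (limma adjusted p = 0.00857) and 2.20 with T cell markers held equal (limma adjusted p = 7.4e-08). Relative to all tested genes Dnmt1 stayed between -0.096 and 0.28 of the median.

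Uhrf1 (chromosome 17, 56303321 to 56323486) was at 2.17, 2.59 and 2.99 TPM in spleen and at 6.98 and 6.31 TPM in tumor. Both tumor libraries stood above all spleen libraries, but below the olfactory background of their own library. The log2 change was 1.10 ± 0.21 (SE; limma adjusted p = 1.3e-05). It was called without any single library and was lost with equal totals (0.34, limma adjusted p = 0.128). Relative to the median of all tested genes it was 0.81 to 0.91 higher.

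Among the TET genes Tet2 dominated in both tissues, and Tet1 fell under each scaling but that on T cell markers. Tet2 (chromosome 3, 133463679 to 133545139) was at 95.5, 73.0 and 92.2 TPM in spleen and at 108 and 145 TPM in tumor, above 95.9% to 98.8% of listed genes in each library. The tissues did not overlap, and tumor replicate 3 was the highest library. The log2 change of 0.53 ± 0.21 (SE; limma adjusted p = 0.0269) was no longer called without spleen replicate 3 (0.58, limma adjusted p = 0.0871) or tumor replicate 3 (0.33, limma adjusted p = 0.407), nor by median ratios (0.45, limma adjusted p = 0.137). It was -0.11 on the upper quartile and -0.39 for equal totals, neither called, and 2.54 with T cell markers held equal. Relative to the median of all tested genes it was 0.17 to 0.62 higher over the 5 scalings. An antisense gene model overlaps Tet2 exons.

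Tet1 (chromosome 10, 62804570 to 62908996) was at 6.82, 5.67 and 7.42 TPM in spleen and at 3.47 and 2.42 TPM in tumor. Every tumor value was below every spleen value, and all were below the olfactory background. The log2 change of -0.96 ± 0.21 (SE; limma adjusted p = 0.000116) was called in each fit that left out 1 library and under median ratios, upper quartile and equal totals. With T cell markers held equal it was 0.69, called higher (limma adjusted p = 0.01), where the median gene rose by 1.92. Relative to that median Tet1 was 1.12 to 1.23 lower over the 5 scalings.

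Tet3 and Tdg gave smaller changes that did not hold in every setting. Tet3 (chromosome 6, 83362373 to 83459084) was at 9.50, 15.5 and 10.9 TPM in spleen and at 17.8 and 20.1 TPM in tumor, with no overlap and spleen replicate 2 close to tumor. Its log2 change of 0.65 ± 0.21 (SE; limma adjusted p = 0.00874) was lost without spleen replicate 3 (0.60, limma adjusted p = 0.0623) or tumor replicate 3 (0.57, limma adjusted p = 0.103) and was 0.044 on the upper quartile and -0.23 for equal totals. Tdg (chromosome 10, 82629828 to 82650799) was at 9.22, 16.9 and 13.6 TPM in spleen and at 16.4 and 22.1 TPM in tumor. Spleen replicate 2 lay above tumor replicate 2, so Tdg was the 1 gene of the 8 whose tissues overlapped. Its log2 change of 0.53 ± 0.22 (SE; limma adjusted p = 0.0363) was lost without spleen replicate 1 (0.31, limma adjusted p = 0.231), spleen replicate 3 (0.57, limma adjusted p = 0.0771) or tumor replicate 3 (0.32, limma adjusted p = 0.374), by median ratios (0.45, limma adjusted p = 0.102), and had the opposite sign on the upper quartile (-0.073) and for equal totals (-0.34). Relative to the median of all tested genes Tet3 was 0.34 to 0.63 higher and Tdg 0.22 to 0.52 higher over the 5 scalings. Tdg shares exonic sequence with Glt8d2 on the other strand, which was listed at 1.37 to 3.04 TPM, and has an annotated pseudogene, as does Dnmt3a.

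**Figure D2:**
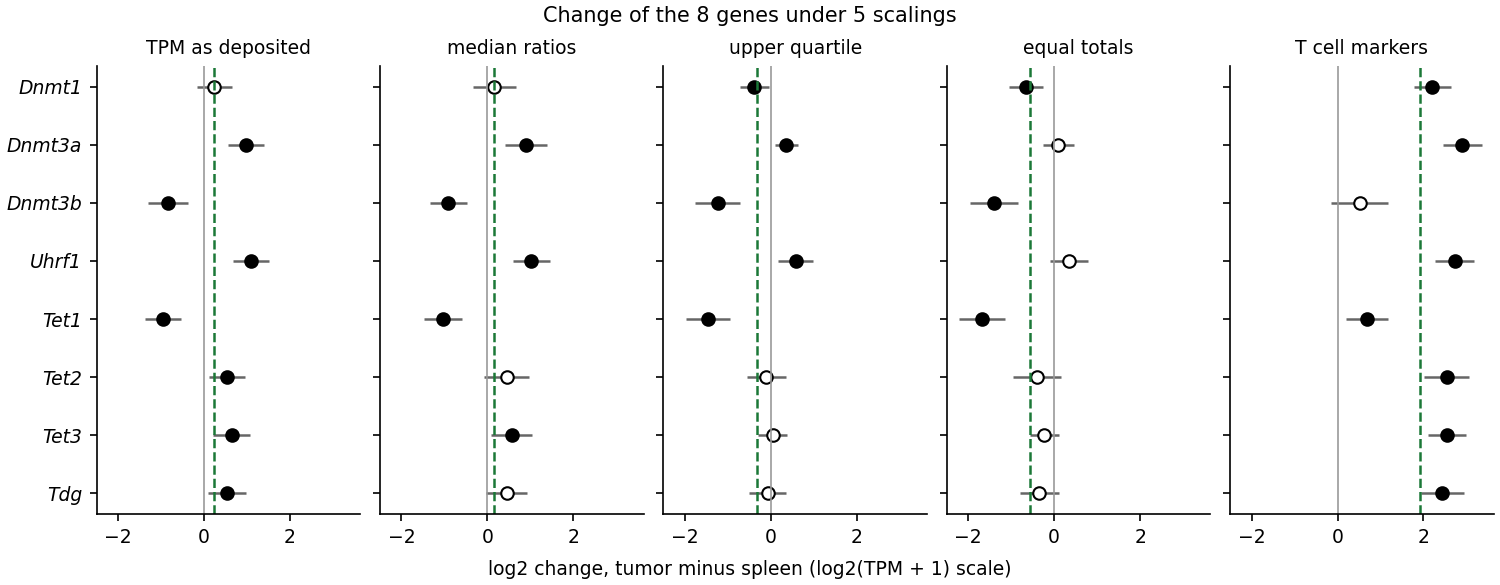
Log2 change (tumor minus spleen, log2(TPM + 1) scale) of each gene under 5 scalings, with 95% confidence intervals; filled points are called at a limma adjusted p below 0.05 and the dashed line is the median of all genes tested. The 8 points move together with the median, from -0.56 with equal totals to 1.92 with T cell markers held equal, because a scaling shifts all genes nearly alike. Dnmt3b and Tet1 lie to its left and Dnmt3a, Uhrf1, Tet2, Tet3 and Tdg to its right in each panel, so the panels are not separate checks of these sides.

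A ratio of TPM within a library does not depend on the scaling between libraries, and 8 such ratios were compared. Such a ratio is not free of background. Dnmt3b, Uhrf1 and Tet1 lay below the olfactory background in every library, and Dnmt3a and Tet3 did in spleen replicates 1 and 3. With 3 libraries against 2, the exact permutation test cannot give a two-sided p below 0.2, and no ratio can pass the threshold. Dnmt3a stood at 0.54, 0.60 and 0.45 of Dnmt1 in spleen and at 0.83 and 0.98 in tumor, a log2 difference of 0.78 without overlap (exact permutation p = 0.2, adjusted 0.267). Dnmt3b stood at 0.17, 0.24 and 0.23 of Dnmt3a in spleen and at 0.028 and 0.061 in tumor, a log2 difference of -2.38 (exact permutation p = 0.2, adjusted 0.267), which was -1.81 without tumor replicate 2. Within the summed TPM of the 3 DNMT genes, Dnmt1 made up 57.4% to 64.6% in spleen and 49.0% to 54.1% in tumor, Dnmt3a 28.8% to 34.3% and 44.7% to 48.04%, and Dnmt3b 5.79% to 8.36% and 1.24% to 2.93%.

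Within the TET genes the ratio of Tet1 to Tet3 separated the tissues and that of Tet2 to Tet3 did not. Tet1 stood at 0.72, 0.37 and 0.68 of Tet3 in spleen and at 0.19 and 0.12 in tumor (log2 difference -1.88, exact permutation p = 0.2, adjusted 0.267). Tet2 was 10.1, 4.70 and 8.49 times Tet3 in spleen and 6.08 and 7.23 times in tumor (log2 difference -0.15, exact permutation p = 0.8, adjusted 0.914), with the tumor values inside the spleen range. Tet2 made up 77.5% to 85.4% of the summed TET level in spleen and 83.6% to 86.6% in tumor, and Tet1 6.02% to 6.71% and 1.44% to 2.67%. The summed TET level was 2.68, 2.12 and 2.38 times the summed DNMT level in spleen and 2.24 and 2.50 times in tumor, which overlapped (log2 difference -0.0081, exact permutation p = 1).

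**Figure D3:**
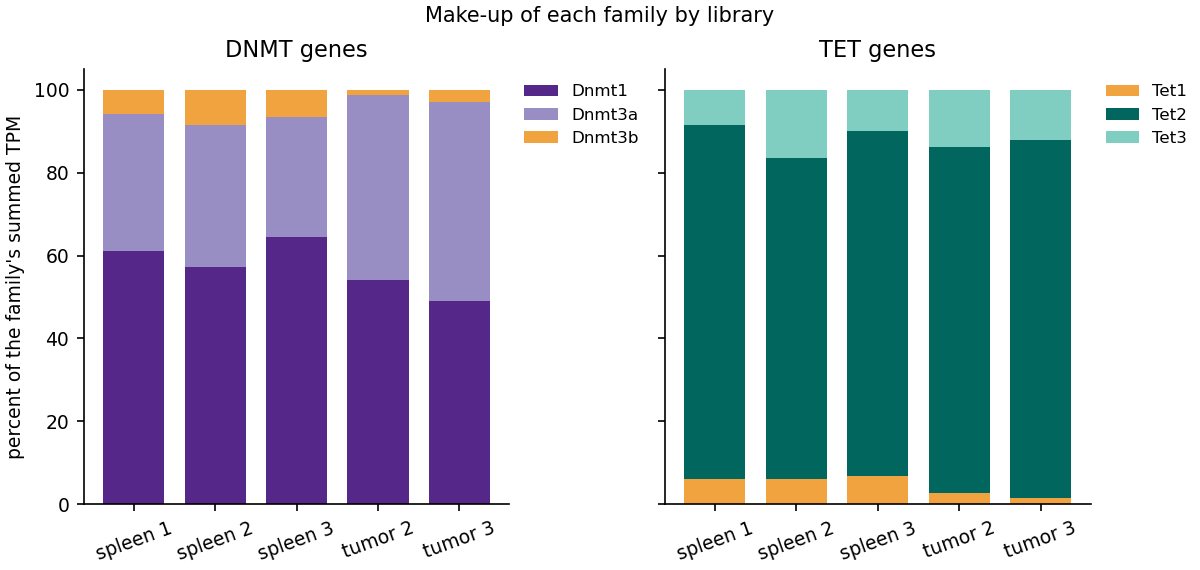
Percent of the summed TPM of the 3 DNMT genes (left) and the 3 TET genes (right) that each gene makes up, 1 bar per library. Dnmt3a takes 44.7% to 48.04% of the DNMT sum in tumor against 28.8% to 34.3% in spleen, and Tet1 takes 1.44% to 2.67% of the TET sum in tumor against 6.02% to 6.71%.

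Set against Pcna, the replication clamp gene, Dnmt1 and Uhrf1 differed from each other. Pcna itself was at 48.3 ± 5.81 (SD, n = 3) and 156 ± 19.3 TPM (SD, n = 2). Dnmt1 stood at 0.53, 0.60 and 0.55 of Pcna in spleen and at 0.18 and 0.23 in tumor (log2 difference -1.44, exact permutation p = 0.2, adjusted 0.267). Uhrf1 stood at 0.045, 0.061 and 0.055 of Pcna in spleen and at 0.041 and 0.044 in tumor (log2 difference -0.32, exact permutation p = 0.2, adjusted 0.267), the tumor values lying just under the lowest spleen value. Uhrf1 went from 0.085, 0.10 and 0.10 of Dnmt1 in spleen to 0.22 and 0.19 in tumor (log2 difference 1.12, exact permutation p = 0.2, adjusted 0.267).

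**Figure D4:**
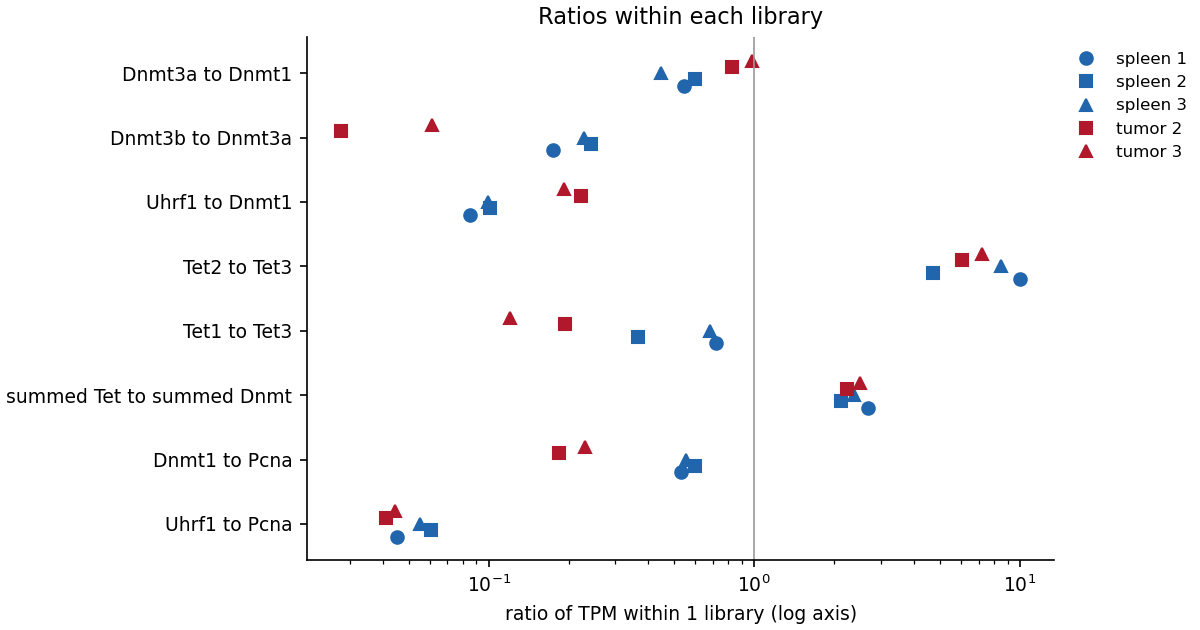
Ratio of TPM within each library (log axis) for 8 pairs of genes or sums, spleen libraries in blue and tumor libraries in red. Tumor points stand apart from spleen points in 6 of the 8 rows, and overlap for Tet2 to Tet3 and for summed Tet to summed Dnmt. Among single genes 70.4% of all tested did not overlap, and no share over other ratios was computed.

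Related genes were described in 6 lists, of 115 genes with 107 tested: 52 were called higher and 12 lower in tumor, against 40.9% and 18.1% of all tested genes. The balance followed the scaling, with 43 higher and 13 lower by median ratios, 31 and 44 on the upper quartile, 19 and 54 of 108 tested for equal totals and 107 and 0 of 109 tested with T cell markers held equal. All tested genes gave 4838 higher and 2742 lower of 12977 by median ratios, and 3478 and 5545 of 13096 on the upper quartile. With T cell markers held equal they gave 12712 and 135 of 13495. Over all tested genes the equal totals gave 20.4% higher and 51.4% lower. In the list of S phase and mitosis genes 15 of 24 were called higher and 2 lower (median log2 change 0.92, against 0.23 for all tested genes). Cdt1, the replication licensing factor gene, went from 5.69 ± 0.58 (SD, n = 3) to 25.1 ± 2.08 TPM (SD, n = 2), and Mki67, the proliferation marker, from 5.26 ± 0.81 to 13.8 ± 2.45 TPM. Each lay below the olfactory background in every spleen library and above it in each tumor library. The helicase subunit gene Mcm7 fell from 18.6 ± 1.51 to 11.7 ± 0.85 TPM, a call lost without spleen replicate 3 or either tumor replicate (limma adjusted p = 0.0569, 0.0507 and 0.117). With equal totals 4 of this list were higher and 8 lower, and Mki67 was no longer called (limma adjusted p = 0.0504).

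The TET co-substrate 2-oxoglutarate, and succinate and fumarate, which compete with it, are handled by 19 listed genes. Of these 11 were called higher and 2 lower in the deposited TPM (median 0.71), and 6 higher and 8 lower with equal totals. All tested genes gave 40.9% higher and 18.1% lower, and 20.4% and 51.4% with equal totals. Got1, a cytosolic aspartate aminotransferase gene, went from 4.51 ± 0.30 to 149 ± 12.3 TPM, a limma log2 change of 4.77 (adjusted p = 1.2e-25). D2hgdh, whose enzyme converts 2-hydroxyglutarate, an inhibitor of TET enzymes, back to 2-oxoglutarate, had the smallest p among those called lower. It was at 9.28, 11.05 and 9.70 TPM in spleen and at 3.55 and 5.70 TPM in tumor (log2 change -0.99 ± 0.21, SE; limma adjusted p = 7.6e-05). D2hgdh lay below the olfactory background in spleen replicates 1 and 3 and in both tumor replicates, and with T cell markers held equal the sign turned (0.78).

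Supply of S-adenosylmethionine, the methyl donor of the DNMT enzymes, and one-carbon metabolism gave 8 of 18 tested genes higher and 2 lower (median 0.37), and 3 higher and 10 lower with equal totals, where all tested genes gave 40.9% and 18.1%, and 20.4% and 51.4%. The folate carrier gene Slc19a1 fell from 2.57 ± 0.28 to 0.90 ± 0.46 TPM, below the olfactory background in every library. Among base excision repair and other demethylation genes 9 of 19 tested were higher and 2 lower (median 0.22), and 5 and 10 with equal totals, against 40.9% and 18.1%, and 20.4% and 51.4%, of all tested genes. Apobec1, a cytidine deaminase gene best known for RNA editing, went from 9.08 ± 0.66 to 396 ± 55.7 TPM, and Ogt, whose enzyme binds TET proteins and attaches GlcNAc, fell from 98.9 ± 26.6 to 45.1 ± 2.28 TPM.

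Readers of methylated or unmethylated CpG gave 5 of 12 tested genes higher and 3 lower (median 0.094), and 1 of 13 higher and 9 lower with equal totals, against 40.9% and 18.1%, and 20.4% and 51.4%, of all tested genes. Mbd2, a methyl-CpG binding protein gene, went from 56.0 ± 11.9 to 190 ± 12.4 TPM, and Kmt2a, a histone methyltransferase gene with a CpG-binding domain, fell from 18.6 ± 5.18 to 8.15 ± 1.18 TPM. Kmt2a lay below the olfactory background in spleen replicate 1 and in both tumor replicates. Of 15 tested partners of the methyltransferases 4 were higher and 1 lower (median 0.25), and 0 higher and 9 lower with equal totals, against the same shares of all tested genes and a median of 0.23. Smchd1, a chromatin protein gene of X inactivation, went from 61.5 ± 13.01 to 142 ± 9.84 TPM, a call lost with equal totals (limma adjusted p = 0.053). Cdca7l fell from 5.77 ± 0.88 to 2.31 ± 0.71 TPM, below the olfactory background in every library. With T cell markers held equal Slc19a1, Ogt, Kmt2a, Cdca7l and Mcm7 had positive changes. The macrophage marker sum was 281-fold higher in the same tumor libraries, and its part in these values was not tested.

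**Figure D5:**
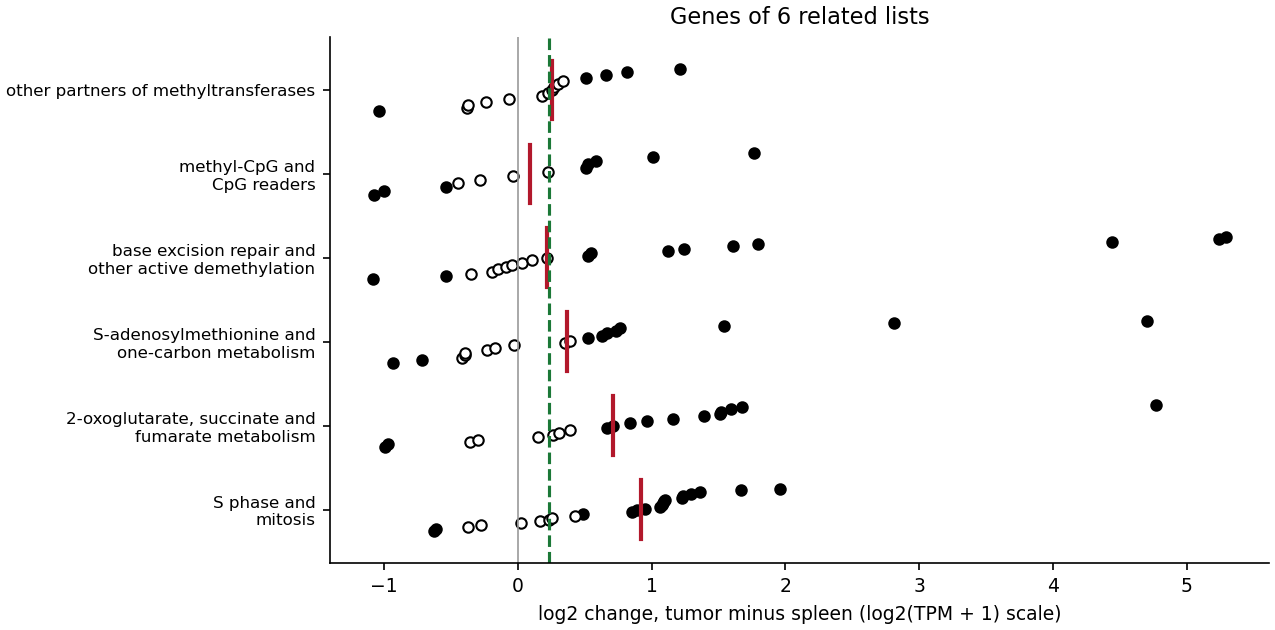
Log2 change (tumor minus spleen, log2(TPM + 1) scale, TPM as deposited) of each tested gene in 6 lists; filled points are called at a limma adjusted p below 0.05, red bars are list medians and the dashed line is the median of all tested genes, 0.23. List medians run from 0.094 for CpG readers to 0.92 for S phase and mitosis genes, and Apobec1, Gadd45b, Got1 and Gadd45g are among the points beyond 4.

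For each of the 8 genes the tested gene with the nearest profile over the 5 libraries was found, by Euclidean distance of log2(TPM + 1) centred on each gene's mean. Over so few libraries such profiles mostly reflect the tissue difference and many genes lie close. The nearest genes were Snrpa for Dnmt3a (distance 0.066), Rps16 for Dnmt3b (0.15), Bdh2 for Dnmt1 (0.10), Pstpip1 for Uhrf1 (0.089), Lrrc75b for Tet1 (0.19), Pomc for Tet2 (0.082), Rb1 for Tet3 (0.052) and Crls1 for Tdg (0.094).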

How the data were processed

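The measured quantity is gene-level RNA in 3 spleen and 2 tumor libraries, prepared as stranded, ribosomal RNA-depleted total RNA from 300000 cells each and read as pairs of 75 bp, per the labels' protocols. The deposited values are taken as TPM computed by the authors: they are not whole numbers and sum to 268987 to 596116 per library, below the total to which TPM are scaled. Kallisto, DESeq2 and the build mm10 are named in the submitters' processing notes, with no version or role. Read depth is unknown, so no counting interval is given. The labels do not say that replicates are separate mice, and p-values then cover only the spread between these libraries, which may be technical. For limma that spread is mostly pooled over genes, as given below.

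From the deposited TPM, log2(TPM + 1) of 12979 genes whose mean reached 1 TPM was fitted by tissue alone in limma 3.58.1 (R 4.3.3). The fit used a trend of variance on level, two-sided tests and Benjamini-Hochberg adjustment over all genes tested. Fold changes on this scale understate those of low genes. Residual degrees of freedom were 3 and prior degrees of freedom 44.1. Each limma SE and p-value of this fit therefore rests mainly on a variance shared by genes of like level, and less on the gene's own spread. Ratios were compared by exact permutation tests, adjusted over the 8 ratios. The script was tested on simulated data. Coordinates are GENCODE M21 (GRCm38), where 19703 of the 19726 symbols matched; promoter sequences are RefSeq's on GRCm38.p6, and all 8 genes matched.

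The 8 genes and the gene lists were chosen with earlier results of these data known. Besides the 8, named genes are, per related list, the called gene with the smallest p in each direction, Pcna and Mki67, the highest marker of each cell type, and the nearest profile of each gene. Some genes of the related lists that this rule names are not reported here. Alternatives were 4 other scalings, pseudocounts of 0.1 and 10, no filter or a mean of at least 5 TPM, leaving out each library, and blocking on the replicate number. Where this leaves 1 tumor library, the residual spread comes from the spleen libraries alone. Prior degrees of freedom were infinite in these fits, so each gene's variance was the trend value for its level and not its own. They were also infinite by median ratios, with the replicate block, at a mean of at least 5 TPM and without spleen replicate 3. Tests for counts were planned for files of counts and were not used on TPM.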

Additional observations from a re-analysis of the deposited data

How the results depend on the processing

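Dnmt1 was not called in any setting with the deposited scaling. Values that changed side or sign were as follows, as log2 changes. By median ratios the calls of Tet2 (0.45) and Tdg (0.45) were lost. On the upper quartile Dnmt1 was -0.38, Tet2 -0.11 and Tdg -0.073, and Tet3 (0.044) was no longer called. With equal totals Dnmt1 was -0.66, Tet2 -0.39, Tet3 -0.23 and Tdg -0.34, and Dnmt3a (0.091) and Uhrf1 (0.34) were no longer called. With T cell markers held equal Dnmt1 was called at 2.20, Dnmt3b was 0.51 and Tet1 0.69. The call of Tdg was lost with a pseudocount of 10 (0.34) and with no filter (0.53), where more genes are tested. Dnmt3b and Uhrf1 were not tested at a mean of at least 5 TPM.

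With the replicate number as a block, Tet3 (0.51) and Tdg (0.31) were no longer called, and no other of the 8 calls changed. Replicate 1 occurs in spleen only, so the block gives the same log2 changes as leaving out spleen replicate 1. Whether equal numbers mark the same mouse is not given. Deviations from the tissue mean correlated across genes at 0.20 for the replicates numbered 2 and 0.066 for those numbered 3, 2 pairs being too few to establish pairing. Spleen replicate 1 and tumor replicate 3, which differ in number, correlated at 0.19, and the other unlike pairs at -0.19, -0.20 and -0.066. With 2 tumor libraries the deviations mirror each other, so each spleen library has opposite signs with them. The block called 4877 genes higher and 2013 lower.

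Leaving out each library in turn gave ranges of 0.21 to 0.32 for Dnmt1, 0.83 to 1.13 for Dnmt3a, -1.23 to -0.44 for Dnmt3b, 1.01 to 1.18 for Uhrf1, -1.15 to -0.77 for Tet1, 0.33 to 0.74 for Tet2, 0.51 to 0.84 for Tet3 and 0.31 to 0.74 for Tdg. The log2 ratio of Tet2 to Tet3 ranged from -0.48 to 0.070 and that of summed Tet to summed Dnmt from -0.093 to 0.078, both changing sign, and no other ratio did. Genes called over the whole table ranged from 4311 to 5894 higher and from 1225 (without tumor replicate 2) to 2609 lower. They numbered 5309 and 2347 as deposited, 3478 and 5545 on the upper quartile, 2697 and 6789 for equal totals, and 12712 and 135 with T cell markers held equal. At a mean of at least 5 TPM, where fewer genes are tested, 1456 were lower. In the 6 related lists, 31 were higher and 44 lower on the upper quartile, 19 and 54 for equal totals, 107 and 0 with T cell markers held equal, and 7 were lower at a mean of at least 5 TPM. The cause of these shifts was not tested. Depth is unknown, and Dnmt3b, Uhrf1 and Tet1 lie below the olfactory background.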

Other observations

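Some genes of the related lists stood out and are described here after their values were seen. Gadd45a, Gadd45b and Gadd45g, stress-induced genes that have been linked to active demethylation, were at 2.19 ± 0.49, 3.23 ± 0.71 and 0.34 ± 0.14 TPM in spleen (SD, n = 3) and at 10.1 ± 2.38, 158 ± 8.56 and 27.9 ± 0.77 TPM in tumor (SD, n = 2). Their log2 changes were 1.80, 5.24 and 4.44, each called by limma. Sdhb, Sdhc and Sdhd, which encode subunits of succinate dehydrogenase, rose by 1.51, 1.52 and 1.59 on the log2 scale, while Sdha, the flavoprotein subunit gene, stood at 61.2 ± 17.3 and 49.0 ± 10.5 TPM without a call (log2 change -0.29, limma adjusted p = 0.251). Tyms, the thymidylate synthase gene, was at 29.8 ± 5.45 and 21.9 ± 3.19 TPM (log2 change -0.42, limma adjusted p = 0.0859). Uhrf2, the paralog of Uhrf1, was at 30.0, 38.4 and 32.3 TPM in spleen and at 59.3 and 59.6 TPM in tumor, above Uhrf1 in every library, and its rise was lost on the upper quartile (0.18) and for equal totals (-0.10). The macrophage and monocyte marker sum was 281-fold higher in the same tumor libraries, with 16 of 16 markers called higher, and its part in these values was not tested.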
